A study of Mus musculus with 17 samples.

Results

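The genes described here are 10 members of the Notch pathway: the receptors Notch1, Notch2, Notch3 and Notch4, the ligands Jag1, Jag2, Dll1 and Dll4, and the transcriptional targets Hey1 and Heyl. They were found by gene symbol in a table of read counts with 43346 genes, where each symbol matched 1 row, and all 10 were among the 15795 genes that passed the filter on low counts. The RNA came from bile duct tissue of mice, and the series title names extrahepatic cholangiocarcinoma, a tumour of the ducts between liver and gut. The labels do not say which libraries hold tumour. All 17 samples had the same label, bile duct, with no genotype, strain, treatment, time or age in the labels used here, so no conditions could be compared. The table names each library by a code and a running number, with 6 codes of 2 or 3 libraries. The labels do not say what a code stands for, and the column names matched no sample title. Differences between codes are therefore differences between sets of libraries and not between conditions, and p-values measure the spread between these libraries, which may be technical.

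Library totals ran from 16400556 to 24152314 counts. The keratins Krt8, Krt19 and Krt18 of duct epithelium had medians of 1148, 747 and 688 RPKM, which is reads per kilobase of gene length scaled to library size. Digestive enzyme genes of the pancreas (8 genes) took 0.522% to 10.1% of the counts of the 3 R62850 libraries and at most 0.015% of any other. The 5 libraries of R62850 and R63494 had counts of Y-linked genes (2717 to 4095 over 4 genes) and the other 12 had 0, so sex and these codes cannot be told apart.

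Notch receptors are membrane proteins that are cleaved when they bind a Jagged or Delta-like ligand on a neighbouring cell. The freed intracellular part enters the nucleus, joins the DNA-binding protein RBPJ and turns on genes of the Hes and Hey families, which encode transcriptional repressors. In the liver, Jag1 and Notch2 are known for their part in the formation of bile ducts, and defects of either cause Alagille syndrome. Dll4 and Notch4 are best known from blood vessel endothelium, and Notch3 and Heyl from the smooth muscle cells and pericytes around vessels.

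Notch4 and Dll4 were higher in the libraries coded R62848 and R63500 and lower in those coded R63494, and Dll1 was the reverse, so the sequences around the start sites of these 3 genes are shown. Each window holds 250 bases before and 50 bases after the RefSeq start (build GRCm38.p6, the assembly of mm10). Capitals mark the letters GGAA or its reverse complement TTCC, the core that ETS factors bind. At least 1 match was found in 96.0% of all RefSeq windows.
Notch4, chr17:34564045-34564344, plus strand: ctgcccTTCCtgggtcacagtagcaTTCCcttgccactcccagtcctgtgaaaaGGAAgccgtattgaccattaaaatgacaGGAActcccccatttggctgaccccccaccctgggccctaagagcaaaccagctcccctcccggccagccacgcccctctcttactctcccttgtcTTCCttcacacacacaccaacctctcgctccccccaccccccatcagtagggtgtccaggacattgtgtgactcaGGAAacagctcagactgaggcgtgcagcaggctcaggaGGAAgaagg
Dll4, chr2:119325534-119325833, plus strand: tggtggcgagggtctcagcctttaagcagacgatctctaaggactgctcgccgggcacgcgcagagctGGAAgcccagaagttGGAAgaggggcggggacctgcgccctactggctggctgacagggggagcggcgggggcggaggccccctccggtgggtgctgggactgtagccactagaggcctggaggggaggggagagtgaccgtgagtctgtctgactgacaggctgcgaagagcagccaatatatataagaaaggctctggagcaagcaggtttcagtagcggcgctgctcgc
Dll1, chr17:15376883-15377182, minus strand: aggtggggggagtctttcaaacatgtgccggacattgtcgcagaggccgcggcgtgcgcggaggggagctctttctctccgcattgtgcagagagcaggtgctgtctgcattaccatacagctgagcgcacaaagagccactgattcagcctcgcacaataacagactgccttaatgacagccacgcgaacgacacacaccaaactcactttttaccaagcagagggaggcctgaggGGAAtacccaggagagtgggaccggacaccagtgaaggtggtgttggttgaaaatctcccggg
The Notch4 window held 7 matches, and 8.02% of 32851 RefSeq windows of the same length held as many or more. The Dll4 window held 2 matches and the Dll1 window shown 1, against a median of 3 over all windows. Dll1 has a further RefSeq start, at 15375823, whose window is not shown and also held 1 match. Notch3, which was also higher in R62848 and R63500 and lower in R63494, had 0 matches. Notch1 and Jag1, without that pattern, had 4 each, Notch2 had 3 and Jag2 had 0. The RefSeq start used for Notch1 lies 12841 bases from the edge of the counted gene. Hey1 and Heyl had no window, and a link of matches to the pattern was not tested. The RBPJ core, TGGGAA on either strand, overlaps the ETS core and was found in 25.6% of all windows. It was in none of the 9 windows of the 8 members in the RefSeq table, nor in that of the Notch target Nrarp, and the windows of the targets Hes5 and Hey2 held 2 matches each. These are matches of letters and not binding sites, and they say nothing of bases outside the windows.

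Per kilobase of gene length, the ligands Dll1 and Jag1 led the set and the HEY targets closed it. Dll1 had the highest median level (19.6 RPKM), followed by Jag1 (12.7), Notch2 (9.69), Notch1 (6.87), Jag2 (5.24), Dll4 (4.31), Notch3 (3.74), Notch4 (3.03), Hey1 (1.32) and Heyl (1.22). Jag1 lay above Notch2 in 17 of 17 libraries, by 1.10 to 1.49 times, and Notch4 above Hey1 in 17 of 17. Dll1 lay above Jag1 in 16 libraries and Notch2 above Notch1 in 16. Several neighbours in this order did not differ beyond their spread. Jag2 was above Dll4 in 10 of 17 libraries, Notch3 above Notch4 in 12, and Hey1 above Heyl in 8. Levels scaled by library totals alone gave the same order of medians.

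**Figure D1:**
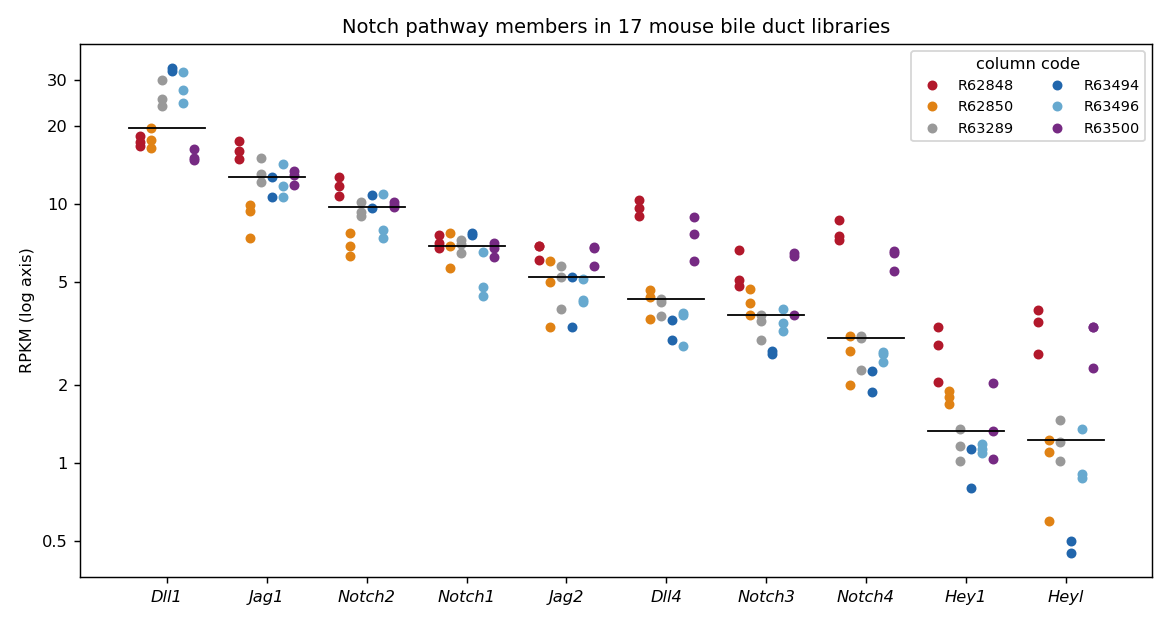
Level of each member in RPKM (log axis) in the 17 libraries, coloured by the code in the column name, with the median as a black line. Dll1 is highest with a median of 19.6 RPKM, and the R62848 and R63500 points lie above all others for Dll4, Notch4 and Heyl.

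All 10 members differed between the 6 codes in edgeR's quasi-likelihood test (Benjamini-Hochberg adjusted p below 0.05 over all genes). The same test called 48.7% of all genes tested. The median range of code means was 2.09-fold for the members and 1.49-fold for all genes, and codes held a median of 79.97% of the members' variance in log2 CPM (the log2 of counts scaled to library size) against 61.4% for all genes. Each code was then set against the mean of the other 5. Of these 60 contrasts 28 passed, 15 higher and 13 lower, and 19 of the 28 passed in every fit that left out 1 library. In the GENCODE vM21 annotation, 7 members overlap another gene. For 5 of them (Dll1, Dll4, Notch1, Notch3 and Notch4) a gene lies on the other strand. Without a stated strand setting the reads of such pairs cannot be told apart. Notch2 (Gm42819 and Gm42820), Jag2 (Mir6941) and Notch1 (Mir6996) overlap a gene on their own strand, which a strand setting would not separate.

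Among the ligands, Dll4 was higher and Dll1 lower in R62848 and R63500, and the reverse held in R63494 and R63496. Dll4 (ENSMUSG00000027314, chromosome 2, from 119325784 to 119335962) stood at 9.64, 8.95 and 10.3 RPKM in the R62848 libraries. It stood at 7.64, 6.03 and 8.91 RPKM in the R63500 libraries and between 2.83 and 4.66 RPKM in the other 11. The 6 libraries of R62848 and R63500 lay above the remaining 11 with no overlap, a pattern chosen after its values were seen and held by 4.53% of all genes tested (the opposite pattern, held by no member, by 2.65%). Dll4 was 2.25-fold higher in R62848 (log2 fold change 1.17 ± 0.111 SE, adjusted p = 1.95e-07) and 1.67-fold higher in R63500 (0.74 ± 0.114, adjusted p = 8.24e-05). It was lower in R63494 (-0.71 ± 0.153, adjusted p = 0.00256) and in R63496 (-0.61 ± 0.128, adjusted p = 0.00449). In R62850, where Dll1 was lower, the log2 fold change of Dll4 was -0.26 (adjusted p = 0.130), and in R63289 it was -0.33 (adjusted p = 0.162). Without R63494_2 the R63494 call was lost (-0.58, adjusted p = 0.0778).

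Dll1 (ENSMUSG00000014773, chromosome 17, from 15367354 to 15376872) was highest in the R63494 libraries, at 33.5 and 32.5 RPKM. The R63496 libraries followed at 32.4, 27.5 and 24.4 RPKM and the R63289 libraries at 30.2, 23.9 and 25.4 RPKM. It was lower in R62850 (16.5, 17.7 and 19.6 RPKM), R62848 (17.4, 16.8 and 18.2 RPKM) and R63500 (14.8, 15.1 and 16.4 RPKM). The 9 libraries of these last codes lay below the other 8 with no overlap, a division made after its values were seen and held by 0.412% of all genes tested. Dll1 was the only member past the threshold in all 6 contrasts. It was higher in R63494 (log2 fold change 0.69 ± 0.0900 SE, adjusted p = 2.04e-05), R63496 (0.41, adjusted p = 0.00247) and R63289 (0.31, adjusted p = 0.0263). It was lower in R63500 (-0.63 ± 0.0854, adjusted p = 2.09e-05), R62848 (-0.41, adjusted p = 0.00111) and R62850 (-0.37, adjusted p = 0.00385). The R63289 call was lost without R63289_1 (0.21, adjusted p = 0.362) or R63289_3 (0.34, adjusted p = 0.0790). The ratio of Dll1 to Dll4 was 1.81 ± 0.0555 in R62848 (SD, n = 3), 2.09 ± 0.361 in R63500 and 10.2 ± 1.06 in R63494 (n = 2).

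Jag1, the ligand mutated in Alagille syndrome (ENSMUSG00000027276, chromosome 2, from 137081456 to 137116644), ran from 7.42 RPKM in R62850_1 to 17.5 RPKM in R62848_2. It was higher in R62848 (15.96, 17.5 and 14.95 RPKM, log2 fold change 0.47 ± 0.0920 SE, adjusted p = 0.000830). It was lower in R62850 (7.42, 9.37 and 9.88 RPKM, log2 fold change -0.56 ± 0.100, adjusted p = 0.000582). In the other 4 codes it passed no test, and their means lay between 11.7 and 13.4 RPKM. Jag1 and Notch2 thus shared the codes where they were called, higher in R62848 and lower in R62850. Of all genes tested, 15.2% were higher in R62848 and 12.8% lower in R62850. The share of genes with both calls was not counted.

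Jag2 (ENSMUSG00000002799, chromosome 12, from 112908590 to 112929495), the other Jagged ligand, ran from 3.35 to 6.90 RPKM and had the highest adjusted p between codes of the 10. It was higher in R62848 alone (log2 fold change 0.42 ± 0.147 SE, adjusted p = 0.0427). In R63500, with a mean of 6.45 ± 0.614 RPKM (SD, n = 3) beside 6.61 ± 0.486 RPKM in R62848, the log2 fold change was 0.37 and the adjusted p 0.0762. The difference between all codes (adjusted p = 0.0428) rose to between 0.0557 and 0.107 without any 1 of R62848_1, R62848_2, R62848_3, R62850_2, R63289_3, R63494_1, R63496_2, R63496_3, R63500_2 or R63500_3. The R62848 call was lost without any 1 of 11 libraries (adjusted p from 0.05001 to 0.1697), which were R62848_1, R62848_2, R62848_3, R63289_1, R63289_3, R63494_1, R63496_2, R63496_3, R63500_1, R63500_2 and R63500_3.

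The receptor Notch4 spanned the widest range of the receptors (ENSMUSG00000015468, mm10 chromosome 17, from 34564268 to 34588503). It stood at 8.65, 7.50 and 7.22 RPKM in the R62848 libraries and at 5.51, 6.57 and 6.47 RPKM in the R63500 libraries. In the R63494 libraries it stood at 1.88 and 2.26 RPKM, and in the other 9 between 1.999 and 3.09 RPKM. The 6 libraries of R62848 and R63500 thus lay above the remaining 11 with no overlap, as for Dll4. Among these 11, the 6 libraries of R63289 and R63496 also lacked Y-linked counts and stood at 2.29 to 3.08 RPKM. The part of sex was not tested. Against the mean of the other codes Notch4 was 2.604-fold higher in R62848 (log2 fold change 1.38 ± 0.102 SE, adjusted p = 8.01e-09) and 1.97-fold higher in R63500 (0.98 ± 0.105, adjusted p = 1.29e-06). It was lower in R63494 (log2 fold change -0.91 ± 0.146, adjusted p = 0.000167), in R63496 (-0.53, adjusted p = 0.00719) and in R62850 (-0.53, adjusted p = 0.00373). The R62850 call was lost without library R62850_1 (log2 fold change -0.36, adjusted p = 0.0551).

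Notch3, the receptor of mural cells (ENSMUSG00000038146, chromosome 17, from 32120820 to 32166880), followed the same division less sharply. Its means were 5.50 ± 0.983 RPKM in R62848 (SD, n = 3), 5.49 ± 1.52 in R63500 and 2.67 ± 0.0364 in R63494 (n = 2). R63500_2, at 3.74 RPKM, lay within the range of other codes. Notch3 was higher in R62848 (log2 fold change 0.55 ± 0.129 SE, adjusted p = 0.00376) and in R63500 (0.55, adjusted p = 0.00409), and lower in R63494 (-0.70, adjusted p = 0.00668). Each of these calls was lost without 1 library of its own code. The adjusted p was 0.0502 for R62848 without R62848_1 (log2 fold change 0.40), 0.0578 and 0.0606 for R63500 without R63500_1 or R63500_3, and 0.0744 and 0.0721 for R63494 without R63494_1 or R63494_2. The log2 fold changes were 0.42 and 0.43 in the R63500 fits and -0.69 and -0.71 in the R63494 fits, where 1 library of the code was left.

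Notch2, the receptor tied to bile duct formation (ENSMUSG00000027878, chromosome 3, from 98013538 to 98150367), was the most abundant receptor by median and varied 2.01-fold between the lowest and the highest library. It averaged 11.7 ± 0.983 RPKM in R62848 and 6.99 ± 0.719 in R62850 (SD, n = 3 each), with 8.74 to 10.2 RPKM in the means of the other codes. It was higher in R62848 (log2 fold change 0.38 ± 0.0905 SE, adjusted p = 0.00437) and lower in R62850 (-0.51 ± 0.0972, adjusted p = 0.00101). The R62848 call was lost without R62848_2 (0.32, adjusted p = 0.0560). Without the R62850 libraries the difference between the remaining codes was lost too (adjusted p = 0.0992).

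Notch1 (ENSMUSG00000026923, chromosome 2, from 26457903 to 26516663), a receptor of many epithelial and endothelial cells, was the steadiest member. It ran from 4.41 RPKM in R63496_3 to 7.75 RPKM in R62850_2, a 1.76-fold range. R63496 was the 1 code that stood apart (log2 fold change -0.42 ± 0.101 SE, adjusted p = 0.0112), through R63496_2 and R63496_3 at 4.79 and 4.41 RPKM beside 6.54 RPKM in R63496_1. That call was lost without R63496_2 (-0.36, adjusted p = 0.108) or R63496_3 (-0.31, adjusted p = 0.0901). The difference between all codes (adjusted p = 0.0310) was lost without R63496_2 (0.158), R63496_3 (0.1598), R63494_1 (0.0641), R63494_2 (0.0531) or R63500_3 (0.0522), and when library totals replaced the normalization factors (0.0557).

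The targets Hey1 and Heyl, which encode related repressors of the bHLH class, had the lowest levels of the 10. Heyl (ENSMUSG00000032744, chromosome 4, from 123233556 to 123249875) spanned 8.67-fold between libraries, the widest range of the 10. It stood at 3.51, 2.64 and 3.89 RPKM in R62848, at 3.35, 3.35 and 2.33 RPKM in R63500 and at 0.497 and 0.449 RPKM in R63494. The remaining 9 libraries held 0.595 to 1.46 RPKM, so R62848 and R63500 lay above all others. Heyl was 2.99-fold higher in R62848 (log2 fold change 1.58 ± 0.177 SE, adjusted p = 1.74e-06) and 2.63-fold higher in R63500 (1.40 ± 0.179, adjusted p = 1.10e-05). In R63494 it was lower (-1.81 ± 0.281, adjusted p = 0.000126), with 42 counts in the lowest library.

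Hey1 (ENSMUSG00000040289, chromosome 3, from 8663359 to 8667256) was higher in R62848 alone. Its levels there were 3.36, 2.04 and 2.85 RPKM (log2 fold change 1.11 ± 0.187 SE, adjusted p = 0.000178). In R63500, where Heyl was high, Hey1 stood at 2.03, 1.04 and 1.32 RPKM (log2 fold change 0.02 ± 0.202, adjusted p = 0.950). In R62850 it stood at 1.68 to 1.90 RPKM (0.37, adjusted p = 0.188), and in the 8 libraries of the other codes at 0.796 to 1.35 RPKM. In R63494, where Heyl was lower, the log2 fold change of Hey1 was -0.71 ± 0.259 (adjusted p = 0.0571). The ratio of Heyl to Hey1 accordingly ran from 0.502 ± 0.0880 in R63494 (SD, n = 2) and 0.552 ± 0.214 in R62850 (n = 3) to 2.21 ± 0.885 in R63500 (n = 3).

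**Figure D2:**
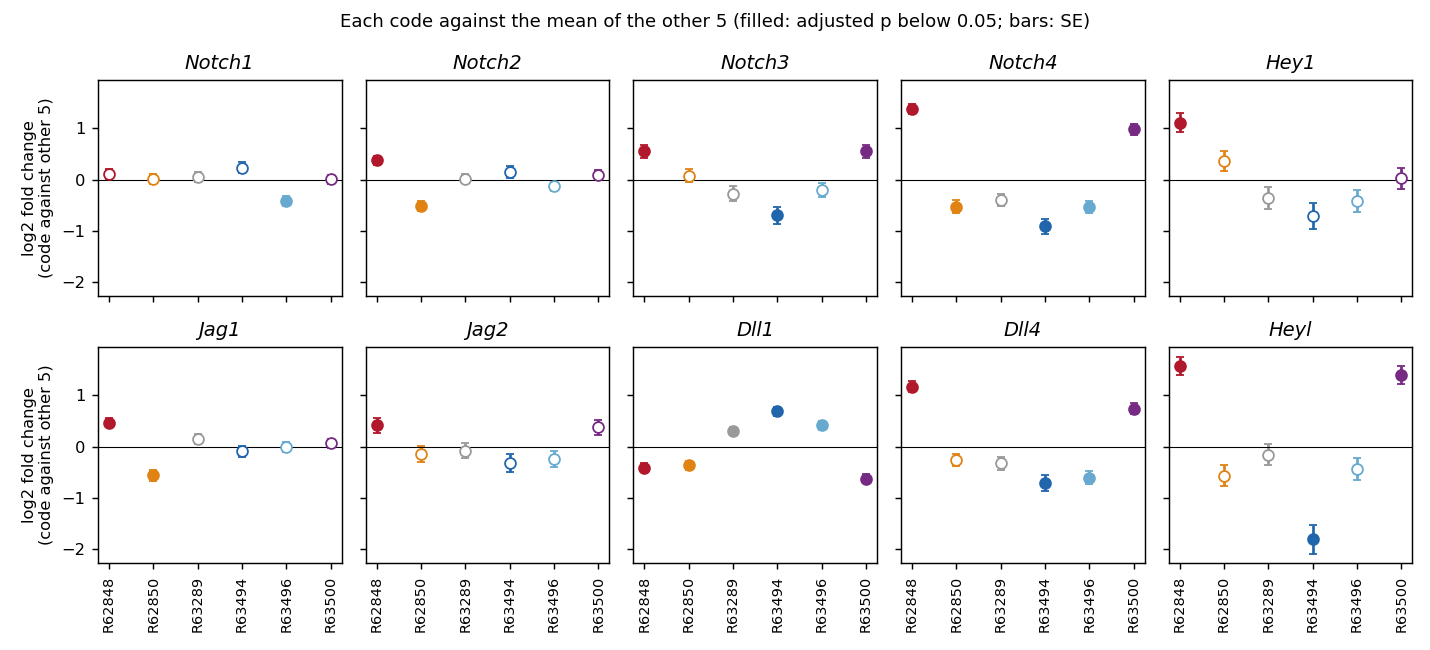
Log2 fold change of each member in each code against the mean of the other 5 codes, with SE bars, filled where the adjusted p is below 0.05. Notch4, Dll4 and Heyl rise in R62848 and R63500, whereas Dll1 is lower in both and highest in R63494 (0.69).

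Read by code, R62848 held 9 of the 28 calls, 8 higher and 1 lower (Dll1), where 15.2% of all genes tested were higher and 10.6% lower. The median log2 fold change there was 0.51 for the members and 0.01 for all genes. R63500 held 4 higher (Notch3, Notch4, Dll4 and Heyl) and 1 lower, against 13.2% and 8.93% of all genes. In R63494 these same 4 genes were lower and Dll1 higher, against 10.6% and 9.3%. In R62850 Notch2, Notch4, Jag1 and Dll1 were lower (12.8% of all genes), and none was higher (11.7%). In R63496 Notch1, Notch4 and Dll4 were lower (6.52%) and Dll1 higher (4.98%). R63289 stood apart for Dll1 alone (higher, 2.44% of all genes), with none lower (2.17%). All contrasts draw on the same libraries, so they are not independent of each other. The joint pattern of Notch3, Notch4, Dll4 and Heyl, higher in R62848 and R63500 and lower in R63494, was held by 3.85% of all genes, and the reverse pattern of Dll1 by 1.61%. Without regard to R63494 the shares were 6.61% and 3.8%.

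The make-up of the ligand and receptor sets shifted with these changes. Dll1 held 63.1% and 63.3% of the summed RPKM of the 4 ligands in the R63494 libraries and 34.1% to 36.9% in the R62848 and R63500 libraries. Dll4 went from 5.18% in R63496_1 to 20.5% in R62848_3. The summed ligand level followed another order, with 49.2 to 50.4 RPKM in R62848, 51.4 and 53.0 RPKM in R63494, 39.99 to 45.5 RPKM in R63500 and the lowest values, 30.9 to 39.9 RPKM, in R62850. Among the receptors Notch2 held the largest share in every library, from 31.9% to 46.97%, apart from R62850_2, where Notch1 held 33.9% and Notch2 33.8%. Notch4 held 23.4% to 25.8% in R62848, 19.2% to 24.6% in R63500 and 8.14% and 10.2% in R63494. The summed receptor level was highest in R62848 (30.7 to 33.5 RPKM) and R63500 (26.8 to 29.4 RPKM), against 17.7 to 23.9 RPKM elsewhere.

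**Figure D3:**
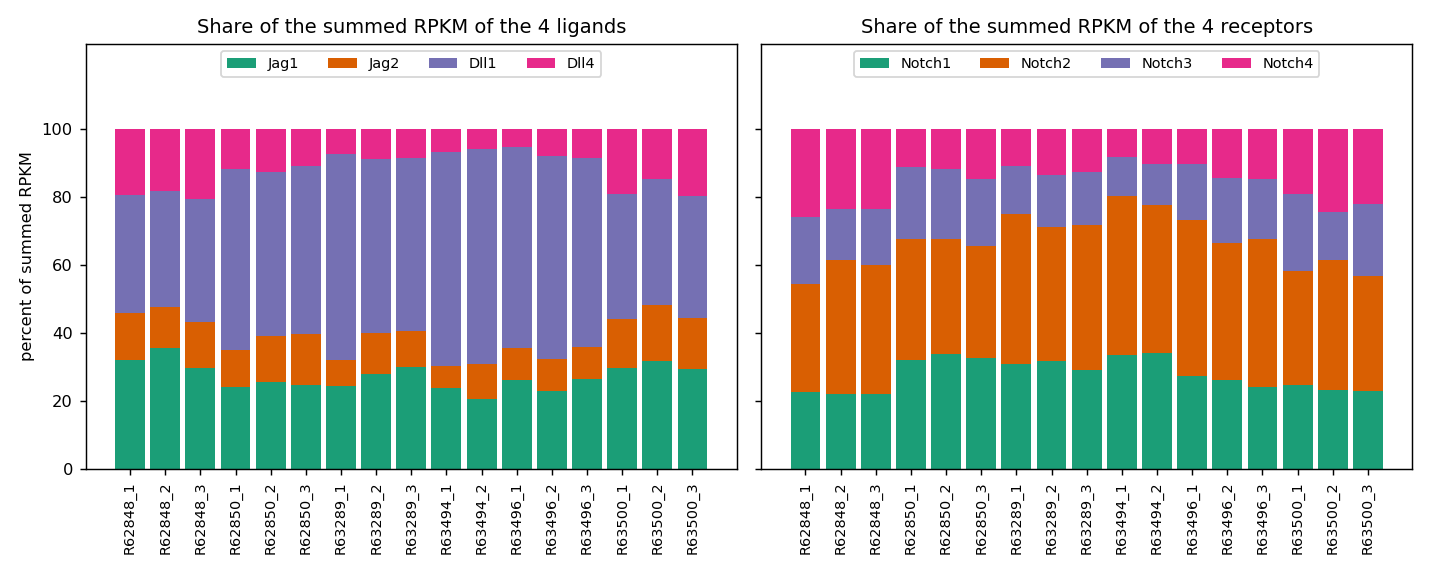
Share of each gene in the summed RPKM of the 4 ligands (left) and the 4 receptors (right) in each library, in percent. Dll1 takes over 63% of the ligand sum in both R63494 libraries, and Dll4 and Notch4 take their largest shares in R62848 and R63500.

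Most markers of vessels and stroma moved with Notch4, Dll4 and Heyl. Of 10 endothelial markers, 8 were higher in R62848 and 6 in R63500, none was lower in either, and 7 were lower in R63494. Of all genes tested, 15.2% were higher and 10.6% lower in R62848, and 13.2% higher and 8.93% lower in R63500. In R63494 10.6% of all genes were lower. Their summed level was 102 to 115 RPKM in R62848, 79.7 to 97.1 RPKM in R63500, 46.4 and 55.2 RPKM in R63494 and 55.2 to 67.4 RPKM in the other codes. No marker of the list was at 0. Cdh5, the adhesion protein of endothelial junctions, had the widest range of the 10 between code means (3.25-fold). It averaged 27.2 ± 0.901 RPKM in R62848 (SD, n = 3) and 8.64 ± 3.13 RPKM in R63494 (n = 2). Vwf and Tek had narrow ranges and did not differ between codes (F test, adjusted p = 0.164 and 0.359). Vwf averaged 5.28 ± 0.35 RPKM in R62848 and 5.33 ± 0.89 RPKM in R63494. Of 10 mural cell markers 8 were higher in R62848, 8 higher in R63500 and 6 lower in R63494, with summed levels of 213 to 226, 157 to 186 and 103 to 109 RPKM. All 10 fibroblast markers were higher in R62848, 7 were higher in R63500, and all 10 were lower in R63494, with summed levels of 1763 to 1834, 1602 to 1923, and 656 and 673 RPKM. In bulk tissue, more cells of a type cannot be told apart from more RNA per cell, and the part of these cell types in the members' differences was not tested.

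Levels were also set against the endothelial sum, which itself ranged 2.11-fold between code means, so that a gene at a constant level would range about as much. Notch4 ranged 3.77-fold between code means in RPKM and 1.78-fold per unit of endothelial RPKM. For Dll4 the ranges were 2.95-fold and 1.59-fold, and for Notch3 2.06-fold and 1.32-fold. The range also narrowed for Hey1 (2.85-fold and 1.80-fold), Jag1 (1.81-fold and 1.63-fold) and Jag2 (1.54-fold and 1.37-fold). Heyl kept a 3.60-fold range of 7.07-fold. Notch4 stood at 7.25 ± 0.344 RPKM per 100 RPKM of endothelial markers in R62848 (SD, n = 3), at 6.93 ± 1.21 in R63500 and at 4.07 to 4.76 in the means of the other codes. For Dll1 the range went from 2.14-fold to 4.02-fold, for Notch1 from 1.46-fold to 2.28-fold and for Notch2 from 1.67-fold to 1.87-fold. The mural and fibroblast sums differed between the same codes. Their means were 220.6 and 1805 RPKM in R62848, 175.1 and 1751 RPKM in R63500 and 106 and 664.5 RPKM in R63494. Levels per unit of these sums were not computed, so whether the narrowing is particular to the endothelial sum was not tested. Of the 10 cholangiocyte markers 1 was higher and 5 lower in R62848, 2 higher and 2 lower in R63500, and 3 higher and 2 lower in R63494. The shares of all genes were 15.2% and 10.6%, 13.2% and 8.93%, and 9.3% and 10.6%. The summed level of these markers overlapped between these codes (3927 to 4229, 3919 to 4943 and 4047 to 4318 RPKM). This sum joins markers that moved in opposite directions. Spp1, the 1 marker higher in R62848, stood at 977 to 1257 RPKM there and at 237.6 and 237.8 RPKM in R63494. Epcam, 1 of the 5 lower in R62848, stood at 381.5 to 404.9 RPKM there and at 546.4 and 585 RPKM in R63494.

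**Figure D4:**
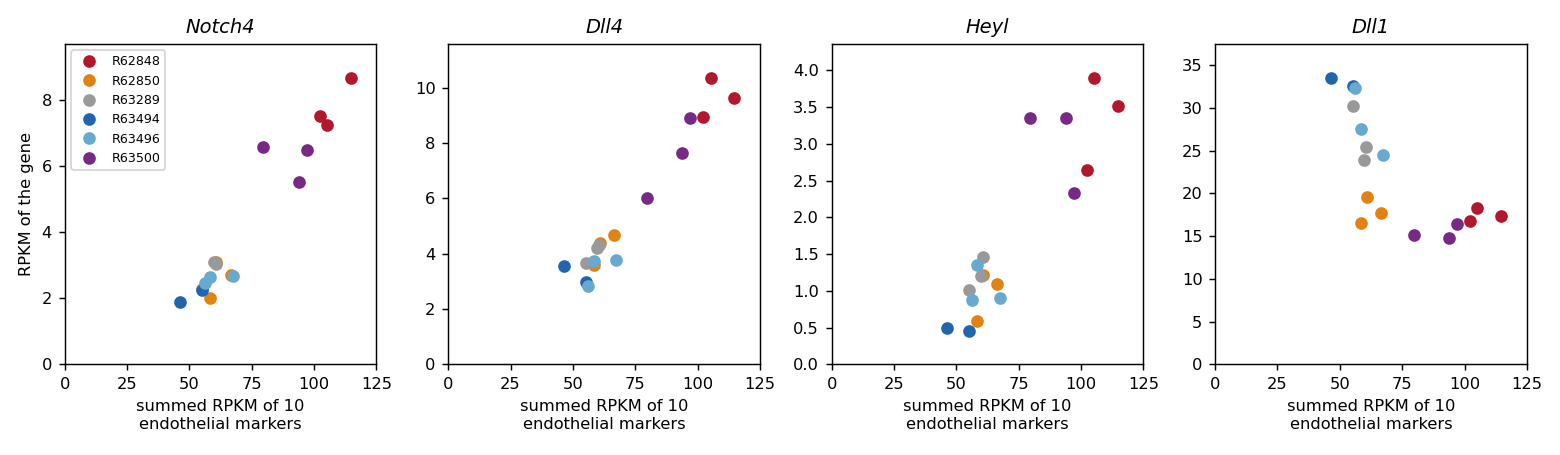
RPKM of Notch4, Dll4, Heyl and Dll1 against the summed RPKM of 10 endothelial markers in the same library, coloured by code. The R62848 and R63500 libraries, with 79.7 to 115 RPKM of endothelial markers, hold the highest Notch4, Dll4 and Heyl levels and low Dll1 levels.

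Of 50 further genes of the pathway, 42 passed the filter and 26 differed between codes, 61.9% against 48.7% of all genes. In R62848, 6 of them were higher and 7 lower, beside 15.2% and 10.6% of all genes tested, with a median log2 fold change of 0.01. The most abundant were Ctbp1, a corepressor, Psenen, a subunit of the gamma-secretase that cleaves the receptors, and Hes1, the main Hes repressor of epithelia, with medians of 86.3, 84.2 and 57.1 RPKM. Hes1 was lower in R62848, where Hey1 and Heyl were higher. It stood at 42.8, 38.3 and 42.8 RPKM in the R62848 libraries and at 48.2 to 64.8 RPKM in the others, with a log2 fold change of -0.46 ± 0.0702 SE (adjusted p = 5.92e-05). Nrarp, a Notch-induced feedback inhibitor, was higher in R62848 (log2 fold change 0.38, adjusted p = 0.00609), at 11.5, 13.1 and 13.7 RPKM against 8.05 to 12.01 RPKM elsewhere. Rbpj itself was slightly lower there (-0.25, adjusted p = 0.0494), and ranged from 6.81 to 10.1 RPKM over all libraries.

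By the SD of log2 CPM, the most variable of these genes were Dtx1, a Deltex ubiquitin ligase, and Neurl1a, a ubiquitin ligase of the Neuralized family that acts on ligands. Neurl1a moved in the direction of Dll1 in 4 codes. It was lower in R62848 (log2 fold change -0.58, adjusted p = 0.000635) and R63500 (-0.85, adjusted p = 1.72e-05) and higher in R63496 (0.70, adjusted p = 0.000167) and R63289 (0.54, adjusted p = 0.00286). Dtx1 was lower in R63500 (-1.24 ± 0.197 SE, adjusted p = 0.000158) and higher in R63496 (0.66, adjusted p = 0.0175). Hes5, Dll3 and Hey2 did not pass the filter on low counts. Hes5 and Dll3 had no counts in 12 of 17 libraries and reached at most 7 counts each in the rest, and Hey2 reached at most 0.576 RPKM.

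Within codes no relation of the members passed the test. After the mean of each code was removed, 85 relations were tested, 45 between members and 40 between a member and a marker score, with all 15552 orders of the libraries within codes. With this permutation test 0 passed for both Pearson's r and Spearman's rho after Benjamini-Hochberg adjustment, and 5 had an unadjusted p under 0.05 for r. The lowest p was that of Notch1 with Notch3 (r = 0.629, permutation p = 0.0009, adjusted 0.0765). Its rho was 0.811 (permutation p = 0.00167, adjusted 0.142), and r was 0.783 without the 2 libraries farthest from the median of Notch1. Notch4 with Jag2 had r = 0.854 (permutation p = 0.00534, adjusted 0.153) and rho = 0.819 (p = 0.00482, adjusted 0.205), and r was 0.623 without the 2 farthest libraries. Notch2 with Jag1 had r = 0.804 (permutation p = 0.0054, adjusted 0.153) and rho = 0.779 (p = 0.00965, adjusted 0.273), and r was 0.731 without the 2 farthest. Notch3 with the endothelial score had r = 0.659 (permutation p = 0.0372, adjusted 0.632) and rho = 0.596 (p = 0.041, adjusted 0.698). That r was 0.156 without the 2 farthest libraries and so rested on them. Dll1 with the fibroblast score had r = -0.737 (permutation p = 0.0322, adjusted 0.632) and rho = -0.517 (p = 0.121, adjusted 0.698), and r was -0.519 without the 2 farthest. Hey1 and Heyl had r = 0.233 (permutation p = 0.379, adjusted 0.716) and rho = 0.306 (p = 0.241, adjusted 0.698), and r was 0.288 without the 2 farthest. Of the 45 member pairs 35 had a positive r, with a median of 0.229.

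The genes most like each member in log2 CPM over all 17 libraries are given with Pearson's r as a description, and with the r within codes beside it. The likeness across all libraries includes the differences between codes. Notch4 was most like the basement membrane collagen genes Col4a1 (r = 0.976, within codes 0.825) and Col4a2 (0.974 and 0.876) and Cdh5 (0.974 and 0.661). Heyl was also nearest to Col4a2 (0.962 and 0.664), then Plxnd1, a semaphorin receptor (0.952 and 0.661), and Col4a1 (0.952 and 0.594). Dll4 was nearest to the hypoxia-induced gene Bnip3 (0.972 and 0.634), then Fgd5 (0.968 and 0.611) and Trp53i11 (0.967 and 0.749). Dll1 had other neighbours, Mmp15, a membrane-bound metalloprotease (0.968 and 0.686), the ETS factor Etv1 (0.959 and 0.747) and the phospholipase Pld1 (0.957 and 0.726). Notch3 was nearest to Esyt1 (0.916 and 0.777), Parvb (0.911 and 0.731) and Ushbp1 (0.893 and 0.670).

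Notch2 was nearest to the chromatin remodeller Chd7 (0.951 and 0.811), Med13l, a Mediator subunit (0.948 and 0.805), and Wdfy3 (0.941 and 0.901). Jag1 was nearest to Kalrn (0.921 and 0.808), Cpne1 (0.919 and 0.705) and Plekhg1 (0.911 and 0.675). Notch1 was nearest to Mical3 (0.913 and 0.865), Ppip5k1 (0.894 and 0.892) and Ap3d1 (0.860 and 0.824). Jag2 was nearest to Tmcc2 (0.904 and 0.834), Extl3 (0.885 and 0.813) and Galnt2 (0.871 and 0.865). Hey1 was nearest to St6galnac5 (0.909 and 0.730), Reck, an inhibitor of metalloproteases (0.872 and 0.404), and AV064505 (0.871 and 0.355).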

How the data were processed

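The table was deposited with whole-number counts per gene, which the authors did not normalize, for 17 libraries. It has 17 further columns of values per library that were not used. In the submitters' processing notes STAR 2.6.1c, featureCounts, edgeR 3.40.2 and the build mm10 are named without their roles. Neither the annotation release nor the strand setting is given in the sources used here. 

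Genes were kept with filterByExpr in edgeR 4.0.16 (R 4.3.3) over all 17 libraries, without regard to code. A gene expressed in few libraries could therefore be dropped, and shares of all genes tested refer to the genes kept. Counts were scaled with TMM factors and fitted with a robust quasi-likelihood model with the code as factor. Genes were tested by an F test over the 6 codes and 6 contrasts of a code against the mean of the others. P-values were Benjamini-Hochberg adjusted over all genes, within each contrast. RPKM used TMM-scaled totals of kept genes and the table's lengths, and log2 CPM a prior count of 2. No 2 libraries were identical (lowest chi-square per degree of freedom 4.24). Both tests were run on counts simulated for R62848 against the other codes over 15737 genes, with 50 genes each changed 1.5-, 2-, 3- and 4-fold. The contrast recovered 62%, 86%, 100% and 98% of them with 6 false calls, and the F test 54%, 72%, 92% and 96% with 11 false calls. All changes were increases in R62848, and every other gene had the same mean in all codes. In the data 48.7% of genes differed between codes, so recovery there may differ. In simulated data for the correlations 1 planted pair was recovered and 0 of 84 others passed. That pair shared 1 series with little noise, and weaker relations were not tried. DESeq2 1.42.0 and limma-trend 3.58.1 were alternatives. Named are all members and pathway genes by level, by variation and 6 preset ones, and Numbl for its pattern over codes. Also named are markers by level or by range between code means, and the 3 genes most like each member. The members and lists were chosen with earlier results of these data known.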

Additional observations from a re-analysis of the deposited data

How the results depend on the processing

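Between 8 and 10 members differed between codes, and 26 to 31 of 60 member contrasts passed, when 1 library at a time was left out. Where that left R63494 with 1 library, its spread was taken from the other codes. The number of all genes that differed then ran from 6719 to 7969 (7692 with all libraries). It was 4942 at a threshold of 0.01, a stricter limit by construction, where 8 members and 25 contrasts passed. With DESeq2, limma-trend, RLE factors, library totals or no filter on low counts, 9 or 10 members and 28 to 31 contrasts passed. None of the 28 called contrasts changed direction under these settings. The pathway and marker genes were not refitted one by one. Library totals moved the median log2 fold change of all genes by at most 0.09 (in R62850, downwards). The order of median levels was the same with library totals and over code means. Levels from the authors' own normalized values were not run. No correlation passed with a prior count of 0.5, with library totals or without R62850_3. No paired analysis was possible because the labels give 1 group only and the columns match no sample. Hey1 and Heyl, with 42 to 388 counts a library, carry the largest errors of the members.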
